A study of Gallus gallus with 3 samples.

Results

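Integrins, laminins and their basement membrane partners were examined in purified chick neural crest cells (NCCs) on 3 Affymetrix chicken genome arrays. The genes were taken by symbol from the platform annotation: every integrin alpha or beta chain, every laminin alpha, beta or gamma chain, the nidogens NID1 and NID2, the proteoglycans HSPG2 (perlecan) and AGRN (agrin), and the glycoproteins FN1 (fibronectin) and VTN (vitronectin). The rule gave 36 genes with 87 probe sets, out of 13009 named genes and 38439 probe sets. Symbols that begin like an integrin chain also brought in 3 genes that are not integrin subunits (ITGB1BP1, ITGB1BP3 and ITGB3BP). Where a gene had several probe sets, the brightest by mean log2 signal stood for it. The integrin genes ITGA5, ITGA2B, ITGA10, ITGB7 and ITGB8 have no probe set named as 1 gene here and were not analysed.

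All samples were cells of White Leghorn embryos carrying the surface epitope HNK1, which migrating neural crest displays, purified with magnetic beads from tissue pooled over many embryos. Trunk NCCs (tNCCs) came from trunk pieces. The study's results describe these as freed of neural tube and notochord, while its methods name ectoderm and notochord. The HH9 cells came from heads according to the methods, although the source name of that array says trunk. There is 1 array per group and no treatment or genotype differs between groups, so no difference given here has a replicate check and no p-value was computed. The labels of the trunk arrays conflict, since the age fields swap the stages that the titles give (HH19 for the array whose title says HH16, and HH16 for the other) and the descriptions say HH16 both times. Titles are used as names here (the HH16-titled array and the HH19-titled array), and which stage each holds is not settled. Nor do the sources used here tell if an array is 1 replicate, pooled replicates or their mean. The HH9 array differs from the trunk arrays in stage, axial level and dissection together, and these cannot be told apart.

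Integrins are transmembrane receptors, each a pair of an alpha and a beta chain, that bind matrix proteins outside the cell and the actin cytoskeleton inside it. Laminins are trimers of an alpha, a beta and a gamma chain, and they polymerise into the sheet on which basement membranes are built. Nidogens and perlecan tie that sheet to a second network of collagen IV. Neural crest cells cross a matrix rich in fibronectin, laminin and collagen on their way from the neural tube, and integrins are their main receptors for it.

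The values are MAS5 signals, a linear intensity per probe set in arbitrary units, scaled by the authors' processing to a trimmed mean near 498 on each array. Signals of different genes come from different probes, so their levels are not strictly comparable. Sums over marker lists add such signals, and bright genes weigh most in them. A signal under 99.8, the 40th percentile of all signals and called the floor here, was raised to it before a fold was taken. Where 1 of the signals was under the floor the fold is therefore a lower bound, and a gene under the floor on both arrays got no fold. A gene was counted as different at 2-fold or more, and the count among the members is given beside the percent of all named genes that passed the same threshold. The neural crest genes SOX10 (signals of 15746, 17338 and 12315 on the HH16-titled and HH19-titled arrays and the HH9 array) and FOXD3 (6650.2, 6018 and 4273) were bright on all 3 arrays. Of 11 neural crest markers, SOX8 was 2-fold or more higher and SOX9 lower on the HH16-titled than the HH19-titled array. Of all named genes, 1.93% and 1.54% were. Against the HH16-titled array, the HH9 array had 4 higher (SOX9, SNAI2, SOX8 and ETS1) and 2 lower (NGFR and EDNRB), beside 3.20% and 6.80%. Against the HH19-titled array it had 2 higher (SOX8 and SNAI2) and 0 lower, beside 2.58% and 5.34%. SOX9 was under the floor on the HH16-titled array (97.8). The 3' over 5' signal ratios of the control probe sets lay between 0.950 and 1.02 for GAPDH and between 0.794 and 0.934 for actin.

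Of the 36 members, 27 were at or above the floor on all 3 arrays, 6 were under it on all 3, and ITGA11, LAMA4 and LAMB4 were under it on 1 or 2. Those under the floor on all arrays were ITGA2 (collagen receptor chain), ITGB2 (the leukocyte integrin beta chain), ITGB6 (an epithelial integrin chain), and LAMA3, LAMB3 and LAMC3. LAMA3 and LAMB3 are laminin chains known from epidermal attachment. The highest signal of these 6 genes was 92.8, for LAMB3 on the HH16-titled array. By contrast, every chain of laminin-111, laminin-211, laminin-511 and laminin-521 was at or above the floor on every array. The same held for both chains of the beta 1 integrins with ITGA1, ITGA3, ITGA4, ITGA6, ITGA7, ITGA8, ITGA9 or ITGAV, and for the pairs of ITGAV with ITGB3 or ITGB5 and of ITGA6 with ITGB4. These statements rest on the brightest probe set of each gene. LAMB2, a chain of laminin-521, read 166, 159 and 124 there, and its other probe set read 15.3, 17.6 and 13.9. LAMA2, a chain of laminin-211, read 157 on the HH9 array by its brightest probe set. Its other probe sets read 50.8, 7.83, 99.6 and 14.1 on that array, all under the floor. Some further probe sets of LAMA2, ITGA4, ITGA7, ITGA9 and ITGB4 were also under the floor on all arrays. The floor is a percentile of the signals and no detection call.

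**Figure D1:**
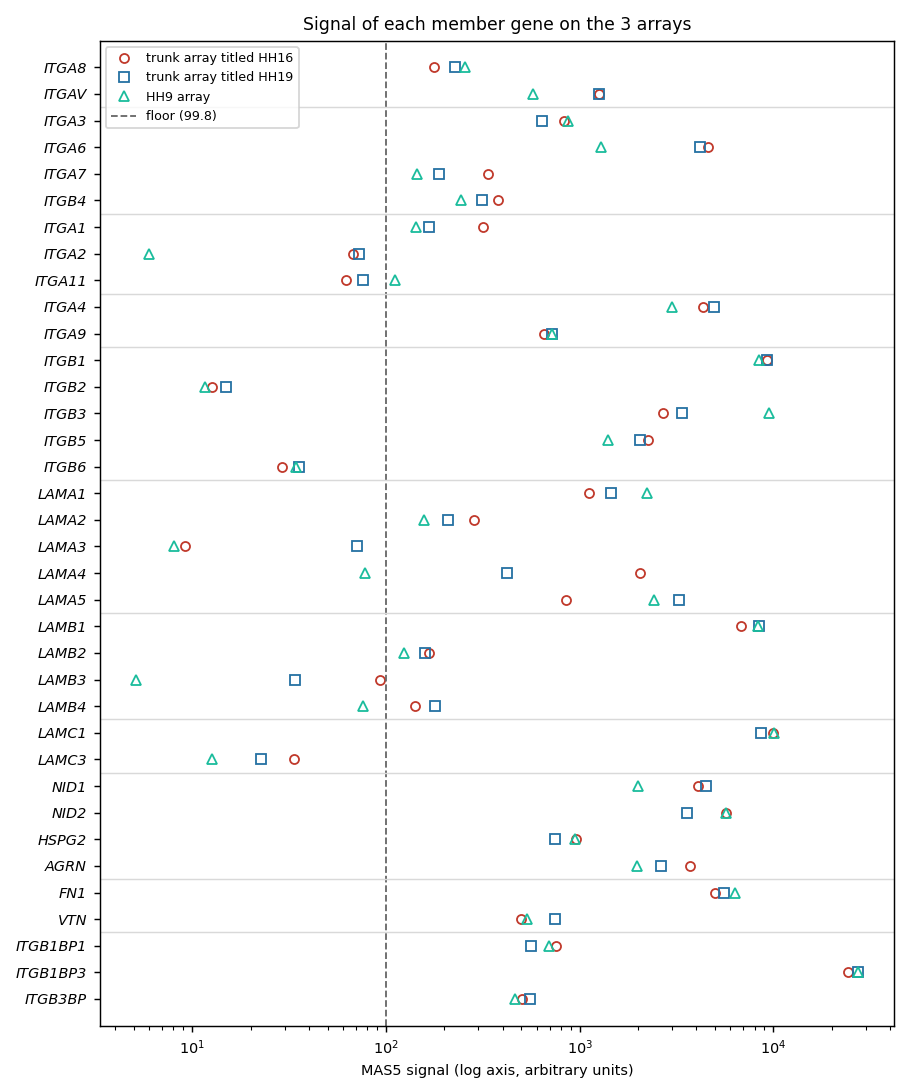
MAS5 signal (log axis, arbitrary units) of the 36 member genes on the HH16-titled trunk array (circles), the HH19-titled trunk array (squares) and the HH9 array (triangles), 1 array each, grouped by role, with the floor of 99.8 dashed. Most genes above the floor keep their 3 symbols within 2-fold, while LAMA4 spreads from 77.6 to 2057 and LAMA5 from 852 to 3252.

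The comparison of the trunk arrays addresses how migrating tNCCs differ from those beginning to gather into dorsal root ganglia, and its direction rests on the unsettled titles. The study describes neuronal genes as higher at the later trunk stage. By the titles the direction here opposes that, and by the age fields it runs the same way. Neuron markers were at least 2-fold higher on the HH16-titled array in 7 of 8 cases.

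Between the trunk arrays most of these genes differed little, and the exceptions were a pair of laminin alpha chains that went opposite ways. Of 29 members with a fold, 1 was at least 2-fold higher on the HH16-titled array (LAMA4), against 1.93% of all named genes. On the HH19-titled array, 1 was higher (LAMA5), against 1.54% of all named genes. The median log2 ratio of the members was 0.00, beside -0.02 over all named genes. Ratios under 1.5-fold were found for 24 of the 29 members (82.8%), beside 87.1% of all named genes.

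LAMA4 encodes the alpha chain of laminin-411 and laminin-421, which are known from the vessel wall and from peripheral nerve. Its signal was 2057 on the HH16-titled array, 419.6 on the HH19-titled array and 77.6, under the floor, on the HH9 array. It was thus 4.90-fold higher on the HH16-titled array than on the HH19-titled array, the 25th largest ratio in this comparison. A second probe set of LAMA4 read 623, 179 and 12.4 and gave 3.47-fold the same way. Over the 8 alternative settings the LAMA4 ratio stayed between 4.13-fold and 5.03-fold. Only array centring, quantile normalization and the median over its probe sets altered it. The partner chains of laminin-411 did not share this difference: LAMB1 read 6819.8 and 8442 and LAMC1 read 10023 and 8604 on the HH16-titled and HH19-titled arrays.

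LAMA5 encodes the alpha chain of laminin-511 and laminin-521, which are widespread in basement membranes. Its signal was 852 on the HH16-titled array, 3252 on the HH19-titled array and 2424 on the HH9 array. The HH16-titled array was the low one of the 3, and the HH19-titled array was 3.82-fold higher (log2 ratio -1.93 for titled HH16 over titled HH19, the 42nd largest). LAMA5 has a single probe set, so no second reading of it exists on these arrays. The ratio ranged from 3.82-fold to 3.95-fold over the alternative settings. Only array centring and quantile normalization altered it, since its trunk signals lie above every floor used and no other probe set enters.

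The other laminin alpha chains moved less. LAMA1, the alpha chain of laminin-111 and the first laminin of the early embryo, read 1117 on the HH16-titled array and 1453 on the HH19-titled array. This was 1.30-fold higher on the latter, and all 5 of its probe sets were higher there, by 1.20-fold to 2.11-fold. LAMA2, the alpha chain of the laminin around muscle fibres and Schwann cells, read 284 and 208, or 1.36-fold higher on the HH16-titled array. A pair of further LAMA2 probe sets gave larger ratios the same way, 2.52-fold (553 and 219.6) and 2.04-fold (315 and 154), so the size of its difference depends on the probe set. LAMA2 thus lay on the side of LAMA4 and LAMA1 on the side of LAMA5.

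Markers of other cell types also differed between the arrays, and their signals on the 3 arrays are given here. Summed signals of the 8 neuron markers were 30127 on the HH16-titled array, 10223 on the HH19-titled array and 6026 on the HH9 array, with 8, 7 and 5 of them at or above the floor. TUBB3, at 9983, 4477 and 5174, carries most of the HH9 sum. Of 7 neuron markers with a fold, 3 (NEFM, STMN2 and ELAVL4) were 2-fold or more lower on the HH9 array than on the HH19-titled array. Among these neuron genes NEUROD1 read 2508, 149.6 and 5.16. Sclerotome and mesenchyme markers ran the other way, with 5 of 8 at least 2-fold higher on the HH19-titled array, summed signals of 752, 2971 and 3186, and 2, 8 and 8 markers at or above the floor. TWIST1, at 15.2, 516 and 1941, carries most of the HH9 sum. Of the 8 markers 3 (POSTN, LUM and NKX3-2) fell 2-fold or more below their HH19-titled signal on the HH9 array, with a list median of -0.54 (log2). Neural tube markers summed to 4293, 7974 and 1121, with 3 of 6 at least 2-fold higher on the HH19-titled array, among them PAX6 (362, 1965 and 196). NKX6-1, at 2602, 3172 and 190, carries most of the HH16-titled sum and was 1.22-fold higher on the HH19-titled array. SOX2 (583, 515 and 184) read higher on the HH16-titled array without reaching 2-fold. In bulk samples fewer cells of a type and less RNA per cell cannot be told apart. Endothelial markers, given because vessels make LAMA4, summed to 1633, 1786 and 1404 and went both ways between the trunk arrays (median log2 ratio 0.24 for HH16-titled over HH19-titled). CDH5 (86.0 and 346) was 2-fold or more higher on the HH19-titled array. TEK (127 and 227) and KDR (294 and 355) read higher there without reaching 2-fold. PECAM1 (222 and 158), EGFL7 (275 and 187), TIE1 (188 and 143), CLDN5 (140.3 and 89.3) and LMO2 (300 and 281) read higher on the HH16-titled array without reaching 2-fold. Leukocyte markers summed to 1682, 1032 and 927, with a median log2 ratio of 0.69 and SPI1 at 488, 240.4 and 19.5. Dermomyotome and muscle markers summed to 1663, 3579.9 and 1301. PAX7, at 609.7, 2319.9 and 649, carries most of the HH19-titled sum. Of 5 markers with a trunk fold it was the only 1 past 2-fold, with a list median of -0.27 (log2). MYF5, MYOD1 and MYOG were under the floor on all 3 arrays. The part of any of these cells in the LAMA4 and LAMA5 differences was not tested.

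**Figure D2:**
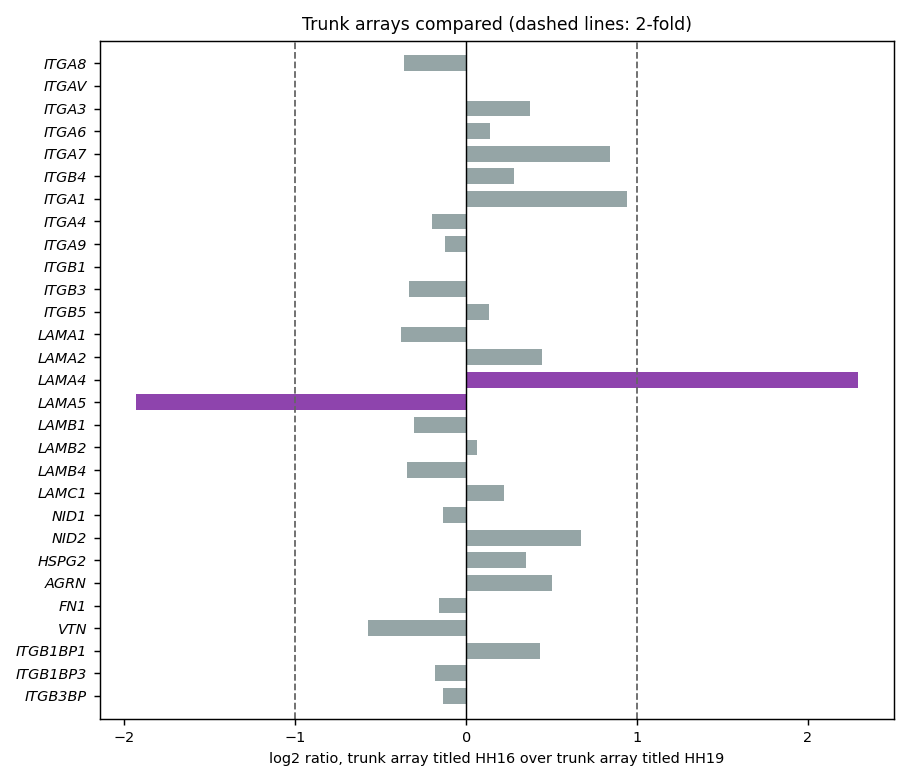
Log2 ratio of the HH16-titled trunk array over the HH19-titled trunk array for the 29 members with a fold, 1 array each, with 2-fold dashed and ratios past it in purple. LAMA4 (2.29) and LAMA5 (-1.93) stand outside the dashed lines and the other 27 lie inside them.

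Among the linkers and proteoglycans, NID2 had the largest trunk ratio, with signals of 5694 on the HH16-titled array and 3575 on the HH19-titled array (1.59-fold). Its only probe set is of a kind that may bind several transcripts. Agrin, known for gathering acetylcholine receptors at the neuromuscular synapse, followed at 1.42-fold (3730.3 and 2633), though the median over its probe sets gave a log2 ratio of -0.13. Perlecan read 958 and 751, and NID1 read 4106 and 4506. Of the adhesive glycoproteins, vitronectin was 1.49-fold higher on the HH19-titled array (500.1 and 745), and fibronectin read 5009 and 5589. None of these 6 genes reached 2-fold (all named genes: 1.93% and 1.54%).

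No integrin chain reached 2-fold between the trunk arrays, where few of all named genes did (1.93% upward and 1.54% downward on the HH16-titled array). ITGB1, the beta chain that pairs with most alpha chains, read 9270.1 and 9252, and ITGAV, the alpha chain of the vitronectin receptors, read 1255 and 1256. For both genes the trunk arrays read nearly the same. The largest integrin ratios belonged to ITGA1, a collagen and laminin receptor chain, at 1.92-fold (319 on the HH16-titled array and 166 on the HH19-titled array), and to ITGA7, a laminin receptor chain of muscle, at 1.79-fold (337 and 188). Both are dim genes, and the ITGA7 ratio fell to 1.17-fold when the median over its probe sets was used. The 4 laminin receptor chains (ITGA3, ITGA6, ITGA7 and ITGB4) all read higher on the HH16-titled array, with log2 ratios from 0.14 to 0.84, none past 2-fold, and a second ITGB4 probe set (148 and 158) read the other way. ITGA4 and ITGA9, whose receptors bind fibronectin, VCAM1 or tenascin, had log2 ratios of -0.20 and -0.13.

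The HH9 array was next set against each trunk array, which addresses what distinguishes HH9 crest from trunk crest. These comparisons share the HH9 array, so their values are given side by side and are not independent of each other. More of the members passed 2-fold here than between the trunk arrays, as did more of all named genes, and in both sets more genes passed it downward on the HH9 array than upward. Of 30 members with a fold against the HH16-titled array, 3 (10%) were past 2-fold upward on the HH9 array (ITGB3, LAMA5 and LAMA1), beside 3.20% of all named genes. In the other direction 6 of 30 (20%) were at least 2-fold lower on it (LAMA4, ITGA6, ITGA7, ITGA1, ITGAV and NID1), beside 6.80% of all named genes. Against the HH19-titled array, 1 of 30 (3.33%) was higher on the HH9 array (ITGB3), beside 2.58% of all named genes. Another 4 of 30 (13.3%) were lower on it (LAMA4, ITGA6, NID1 and ITGAV), beside 5.34% of all named genes. The members' median log2 ratio was -0.11 against the HH16-titled array and -0.23 against the HH19-titled array, with medians over all named genes of 0.01 and -0.00. These medians and counts move with the scaling. With each array centred on its median, the median of all named genes shifted to 0.16 and 0.10 and the members' medians became 0.05 and -0.12. The members lower than on the HH16-titled array fell from 6 to 3 (LAMA4, ITGA6 and ITGA7), no more than the 3 higher ones. Of all named genes, 5.47% were lower and 4.67% higher in that setting.

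ITGB3 was the 1 member that read at least 2-fold above both trunk arrays in the HH9 sample, and ITGA6, ITGAV, LAMA4 and NID1 were the 4 that read at least 2-fold below both. The share of all named genes past 2-fold against both arrays was not counted. Because the comparisons share the HH9 array, these overlaps are a description of the members only. ITGB3 encodes the beta 3 chain, which pairs with ITGAV into a receptor for vitronectin, fibronectin and other proteins with the integrin-binding motif Arg-Gly-Asp (RGD). Its signal was 2688 on the HH16-titled array, 3388 on the HH19-titled array and 9539 on the HH9 array. The HH9 array was thus 3.55-fold and 2.82-fold higher. All 3 probe sets of ITGB3 were higher on the HH9 array, by 2.29-fold to 3.55-fold and by 1.51-fold to 2.82-fold. ITGB3 is also a chain of the thrombocyte fibrinogen receptor. Thrombocyte markers summed to 627, 482 and 449, with TUBB1 at 483, 285 and 337, GP9 at 136, 186 and 98.6, and F13A1 under the floor on all 3 arrays. The part of thrombocytes in the ITGB3 difference was not tested.

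The alpha partner of ITGB3 ran the other way. ITGAV read 1255, 1256 and 575 and was 2.18-fold lower on the HH9 array than on either trunk array. ITGB5, another beta partner of ITGAV, read 2247, 2049 and 1407 (1.60-fold and 1.46-fold lower), and ITGB1, which also pairs with it, read 9270.1, 9252 and 8477. With array centring the ITGAV ratio against the HH16-titled array was -0.97 (log2), just short of 2-fold. ITGAV has 1 probe set.

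ITGA6 encodes the alpha 6 chain, which joins ITGB1 or ITGB4 as a laminin receptor. It read 4608 on the HH16-titled array, 4192 on the HH19-titled array and 1297 on the HH9 array. The trunk arrays lay close together and the HH9 array was 3.55-fold and 3.23-fold lower. Its second probe set (3367, 2761 and 577) gave 5.84-fold and 4.79-fold. Its beta partners differed less, ITGB1 by 1.09-fold in both comparisons (8477 on the HH9 array) and ITGB4 by 1.56-fold and 1.29-fold (379.8, 313 and 243). ITGA6 and LAMA4 were also the members that stayed lower on the HH9 array than on both trunk arrays at a 3-fold threshold.

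The other laminin receptor alpha chains split. ITGA7 read 144 on the HH9 array and was 2.34-fold lower than on the HH16-titled array and 1.31-fold lower than on the HH19-titled array. ITGA3, whose product binds laminin-511, read 828, 639.8 and 868, so its HH9 ratios were 1.05-fold and 1.36-fold upward. The collagen receptor chain ITGA1 also read 144 on the HH9 array and was 2.22-fold lower than on the HH16-titled array and 1.16-fold lower than on the HH19-titled array. Both lie close to the floor. Under the 60th percentile floor their HH9 signals fall below it, and the log2 ratios against the HH16-titled array become bounds of -0.44 for ITGA1 and -0.52 for ITGA7. ITGA11, another collagen receptor chain, reached the floor on the HH9 array alone (62.5, 76.6 and 110.9), which is at least 1.11-fold higher there.

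The laminin alpha chains gave the widest spread of the HH9 comparisons too. LAMA4, at 77.6 under the floor on the HH9 array, was at least 20.6-fold lower than on the HH16-titled array and at least 4.20-fold lower than on the HH19-titled array. Its second probe set gave at least 6.24-fold and at least 1.80-fold. Under the 60th percentile floor, the bound against the HH19-titled array was 1.78-fold. LAMA5 (2424 on the HH9 array) was 2.85-fold higher than on the HH16-titled array and 1.34-fold lower than on the HH19-titled array, so it separated the HH16-titled array from the other 2.

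LAMA1 read 1117, 1453 and 2237. Its 2.00-fold ratio against the HH16-titled array lay at the threshold, and against the HH19-titled array it was 1.54-fold. All 5 LAMA1 probe sets exceeded their HH16-titled signal on the HH9 array, by 1.26-fold to 2.53-fold, and 2 of the 5 reached 2-fold. The chosen LAMA1 probe set is of a kind that may bind several transcripts, and without such probe sets the log2 ratios were 0.35 over the HH16-titled array and -0.10 over the HH19-titled array. LAMA2 read 157 on the HH9 array (1.81-fold and 1.33-fold lower), and its probe set with signals of 553, 219.6 and 50.8 gave at least 5.54-fold and at least 2.20-fold. LAMA2 and LAMA4 thus had their lowest signal on the HH9 array, and LAMA1 had its highest there except in that setting.

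The beta and gamma chains were steadier. LAMB1 (8350.4 on the HH9 array) and LAMC1 (10121) stayed within 1.24-fold in every comparison. LAMB2 read 166, 159 and 124. LAMB4 was at 141 and 179.7 on the trunk arrays and at 75.8, under the floor, on the HH9 array, which is at least 1.42-fold and at least 1.80-fold lower.

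**Figure D3:**
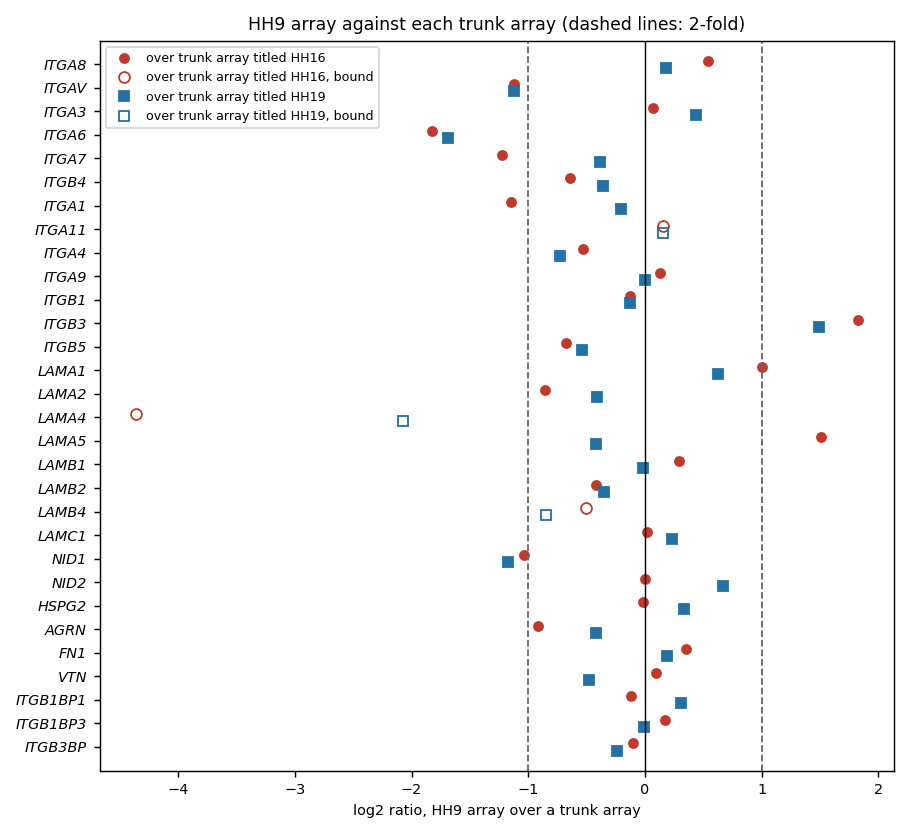
Log2 ratio of the HH9 array over the HH16-titled trunk array (circles) and over the HH19-titled trunk array (squares) for the 30 members with a fold, 1 array each, with open symbols for bounds and 2-fold dashed. ITGB3 lies to the right of the dashed line for both trunk arrays, ITGA6, ITGAV, LAMA4 and NID1 lie to the left for both, and LAMA5 lies far to the right for the HH16-titled array only.

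The nidogens, which bridge laminin and collagen IV, parted from each other. NID1 read 4106 on the HH16-titled array, 4506 on the HH19-titled array and 1996 on the HH9 array, 2.06-fold and 2.26-fold lower on the last. All 4 NID1 probe sets were lower on the HH9 array, by 1.86-fold to 2.53-fold and by 1.76-fold to 2.26-fold. NID2 read 5694, 3575 and 5685, so it did not follow NID1. Its HH9 signal nearly equalled that of the HH16-titled array and was 1.59-fold above that of the HH19-titled array. NID2 was read by 1 probe set, of a kind that may bind several transcripts. Agrin was lowest on the HH9 array (1969), by 1.89-fold and 1.34-fold. Perlecan read 944 there, close to its value on the HH16-titled array (1.01-fold).

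Fibronectin, a substrate of crest migration, read 6377 on the HH9 array (1.27-fold and 1.14-fold higher). Vitronectin read 534 there (1.07-fold higher and 1.40-fold lower). ITGA4 (4313, 4949.7 and 2984) was 1.45-fold and 1.66-fold lower on the HH9 array. ITGA8 (176, 227 and 257) and ITGA9 (656, 716 and 717), receptor chains for RGD proteins and for tenascin among others, were within 1.46-fold.

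The 3 genes that are not subunits changed little. ITGB1BP1, whose product binds the tail of the beta 1 chain, read 759, 563 and 699, and ITGB3BP, a centromere protein, read 502, 552 and 466. ITGB1BP3 is a kinase of nicotinamide riboside, and its probe sets disagree: the brighter one read 24212, 27469 and 27231 and the dimmer 85.8, 47.8 and 106.4. The level of ITGB1BP3 is therefore uncertain.

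With 1 array per group, the only repeated reading is that of several probe sets of a gene on the same RNA, which measures probe disagreement and no biological error. For 16 members with several usable probe sets the median SD of the trunk log2 ratio between probe sets was 0.20, beside 0.19 for 4481 named genes. For the HH9 comparisons it was 0.26 and 0.24 over 14 members, beside 0.22 and 0.20 over all named genes. All probe sets pointed the same way for 9 members in each comparison. LAMA4, ITGA6 and ITGB3 kept 1 direction over their probe sets in each comparison that counted them. In FN1 the probe sets differed in sign, and 1 dim probe set (234, 297 and 117) was 2.54-fold lower on the HH9 array than on the HH19-titled array while the chosen one was 1.14-fold higher.

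**Figure D4:**
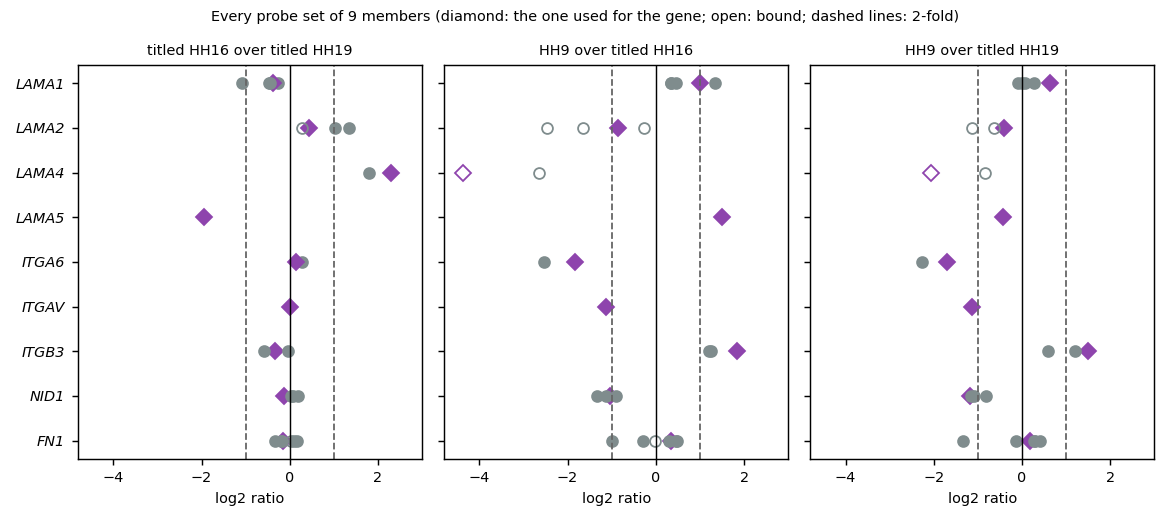
Log2 ratios of every probe set of 9 members in the 3 comparisons, with a diamond for the probe set that stands for the gene, circles for the others, open symbols for bounds and 2-fold dashed. The probe sets of LAMA4, ITGA6, ITGB3 and NID1 fall on 1 side of 0 in the HH9 panels, those of FN1 fall on both sides, and LAMA5 and ITGAV have 1 probe set each.

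Other parts of the same pathway were read from lists of genes by function. Inside the cell, few genes of the adhesion machinery that couples integrins to actin (talin, kindlin, paxillin, kinases and the like) passed 2-fold. Of 44 list genes with a fold, only TES, a zyxin partner, was higher on the HH16-titled array than on the HH19-titled array (4759.8 and 2209.9, 2.15-fold). None was at least 2-fold higher on the HH19-titled array (all named genes: 1.93% and 1.54%). Against the HH16-titled array, 1 of 44 was higher on the HH9 array and 2 lower (all named genes: 3.20% and 6.80%). Against the HH19-titled array, 1 was higher and 1 lower (all named genes: 2.58% and 5.34%). On the HH9 array APBB1IP (RIAM, which brings talin to integrins) was 2.05-fold and 2.97-fold higher. TES (2.45-fold) and the actin crosslinker ACTN1 (2.26-fold) were lower than on the HH16-titled array, and the docking protein NEDD9 (2.23-fold) was lower than on the HH19-titled array. The list medians were -0.04, -0.07 and -0.07 (log2) in the 3 comparisons.

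Other basement membrane genes passed 2-fold against the HH9 array only, in counts that were not tested against those of other genes. Between the trunk arrays 0 of 21 reached 2-fold (1.93% and 1.54% of all named genes did, upward and downward), with a median log2 ratio of -0.20. On the HH9 array, 5 of 22 were at least 2-fold higher and 1 lower than on the HH16-titled array, and 5 of 21 higher and 1 lower than on the HH19-titled array, with medians of 0.17 and 0.16. Of all named genes, 3.20% were higher and 6.80% lower in the first of these comparisons and 2.58% higher and 5.34% lower in the second. SMOC2, a calcium-binding matrix protein, read 173, 218 and 1333 (7.70-fold and 6.12-fold higher), while its relative SMOC1 read 423, 344 and 146 (2.89-fold and 2.35-fold lower). Collagen IV chains split in the same way: COL4A5 read 1198, 1479 and 5407 (4.51-fold and 3.66-fold higher), and COL4A6 read 1294, 1121 and 2269 (1.75-fold and 2.02-fold higher). COL4A1 (1023, 992 and 789) and COL4A2 (2356, 2137 and 1545) read lower on the HH9 array without reaching 2-fold. LOXL2, a crosslinking oxidase, was 2.60-fold and 2.73-fold higher, the fibulin FBLN2 3.75-fold and 2.34-fold, and FBLN1 2.66-fold against the HH16-titled array.

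Among other integrin ligands, none of 17 was at least 2-fold higher on the HH16-titled array than on the HH19-titled array and 3 were lower (all named genes: 1.93% and 1.54%). The 3 were the RGD proteins SPP1 (at least 5.63-fold) and MFGE8 (3.21-fold) and the matrix protein POSTN (3.24-fold). The list median was 0.05. On the HH9 array the largest differences were those of the matricellular genes CCN2 (9975, 14503 and 1704) and CYR61 (4930.2, 5924 and 1174). CCN2 was 5.85-fold and 8.51-fold lower there and CYR61 4.20-fold and 5.05-fold lower. MFGE8 was 4.04-fold and the reelin gene RELN 2.25-fold higher than on the HH16-titled array, and the fibrinogen chain FGB at least 3.08-fold higher than on both trunk arrays. In all, 4 of 20 ligands were higher and 2 lower on the HH9 array than on the HH16-titled array, and 1 of 19 higher and 4 lower than on the HH19-titled array (all named genes: 3.20% and 6.80%, then 2.58% and 5.34%).

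Matrix receptors other than integrins gave 0 of 21 genes higher on the HH16-titled array than on the HH19-titled array and 2 lower (all named genes: 1.93% and 1.54%). The 2 were the collagen receptor DDR2 (at least 2.63-fold) and the netrin receptor UNC5C (2.36-fold). Against the HH16-titled array, 3 of 21 were higher on the HH9 array (DDR2 at least 3.66-fold, the syndecan SDC2 3.04-fold and UNC5C 2.53-fold) and 3 were lower (all named genes: 3.20% and 6.80%). The 3 lower ones were DAG1 (dystroglycan, a laminin receptor, 682, 602 and 310.3, 2.20-fold), the glypican GPC1 (2.12-fold) and DMD (dystrophin, which anchors dystroglycan to actin, 2.10-fold). DAG1 thus read lower on the HH9 array beside the laminin receptor chain ITGA6. Against the HH19-titled array, 1 of 20 was higher, the agrin receptor LRP4 (2.99-fold), and 0 were lower (all named genes: 2.58% and 5.34%).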

How the data were processed

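HNK1+ NCCs of chick embryos were hybridised to Affymetrix chicken arrays, of which 3 are used here, 1 per group. The deposited values are intensity values (MAS5 signals, linear scale), which a company made for the authors. Sources used here do not give the MAS5 version. The methods describe 3 biological replicates per stage.

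After 96 controls were dropped from 38535 probe sets, 27168 carry 1 gene, 177 several and 11094 none. A reference gene table (GRCg7b, names only) held all 36 member identifiers and changed 0 symbols. Items withheld for evaluation are not reported here.

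Signals were floored at 99.8 before log2 ratios were taken. Differences of at least 2-fold were counted. The number of arrays limits the precision, and no test was run. The members and lists were chosen with earlier results of these data known. Every member is accounted for: those past 2-fold are named with all 3 signals, the rest by signal, ratio or range, and from each pathway list up to 5 genes per comparison are named. Alternatives were array centring, quantile normalization, floors at the 20th or 60th percentile or none, a 3-fold threshold, the median over a gene's probe sets, and dropping probe sets open to cross-hybridisation (suffixes s, x and a). The ratio and count steps were tested on simulated data. Python 3.11.15, numpy 2.4.6, pandas 2.3.3, scipy 1.17.1 and matplotlib 3.10.9 were used.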

Additional observations from a re-analysis of the deposited data

How the results depend on the processing

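No paired analysis was possible because each group has 1 array. Over 8 alternatives, 654 of 678 member ratios stayed on their side of the threshold, 20 fell short of it, 4 newly passed it and no ratio past it reversed. Ratios that a setting left without a fold are not among the 678. One such loss was a call: ITGA7 against the HH16-titled array had no fold when probe sets open to cross-hybridisation were dropped. Of 89 ratios, 24 took both signs over the settings, all of them short of 2-fold. Part of these values could not change, since a floor or a choice of probe sets leaves a bright gene with 1 probe set as it was. LAMA4 and LAMA5 stayed past 2-fold between the trunk arrays under all 8 alternatives, most of which left these ratios untouched. Only array centring and quantile normalization altered that of LAMA5, and for LAMA4 also the median over its probe sets. With the floor at the 20th percentile or with no floor, 2 members in place of 1 were higher on the HH16-titled array than on the HH19-titled array and 2 in place of 1 lower, while the share of all named genes rose from 1.93% to 4.30% and 6.39% upward and from 1.54% to 3.52% and 5.0% downward. With those floors 7 of 34 and 8 of 36 members in place of 4 of 30 were lower on the HH9 array than on the HH19-titled array, and 7.80% and 9.37% of all named genes in place of 5.34%. With array centring 3 members in place of 6 were lower on the HH9 array than on the HH16-titled array. Of all named genes, 5.47% in place of 6.80% were then lower. At 3-fold, against the HH16-titled array, 1 member in place of 3 was higher on the HH9 array and 2 in place of 6 lower. The shares of all named genes fell too, from 3.20% to 1.05% higher and from 6.80% to 2.66% lower. Against the HH19-titled array 0 in place of 1 were higher and 2 in place of 4 lower at 3-fold. The share of all named genes higher on the HH9 array in that comparison went from 2.58% to 0.639%. A stricter threshold cannot raise such counts or shares in either direction, so the fall is no result about the members. The members' median log2 ratio of the HH9 array over the HH16-titled array was 0.05 with centring, from -0.11. Over the HH19-titled array it was -0.12 with centring, -0.07 under the 60th percentile floor and -0.36 without one, from -0.23. Apart from the floors and the threshold, whose construction sets which genes pass, the cause was not tested. Of the calls nearest 2-fold, LAMA1 lost its own under quantile normalization (0.99), and NID1 under centring against the HH16-titled array (-0.88) and with the median over probe sets against the HH19-titled array (-0.95). AGRN passed 2-fold against the HH16-titled array under quantile normalization (-1.01), and LAMA2 with the median over its probe sets (-1.51). Dim genes (ITGA1, ITGA7, ITGA11, LAMB2 and LAMB4) lie near the floor, and small ratios of theirs are the least certain.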
